A study of Mus musculus with 6 samples.

Results

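The genes described here encode the conjugating enzymes of the liver, which are the glutathione S-transferases (GST), the UDP-glucuronosyltransferases (UGT) and the sulfotransferases (SULT). They were chosen by name: a probe was taken if its RefSeq identifier led to a symbol beginning with Gsta, Gstk, Gstm, Gsto, Gstp, Gstt, Gstz, Mgst, Ugt1, Ugt2, Ugt3 or Sult. This gave 58 of the 37074 genes on the array, of which 24 were GST, 14 UGT and 20 SULT genes, read by 80 of 55681 probes. The RefSeq table holds 67 symbols of these families, and those without a matched probe, Ugt1a1 among them, were not analysed here.

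RNA was taken from the livers of male L1-Tg mice and of their WT littermates on a control fat diet (CFD), to look for basal differences between the genotypes. L1-Tg mice were hemizygous for B6;D2-Tg(APOE-NPC1L1)20Lqyu/J, which places human NPC1L1, a cholesterol uptake transporter, under the APOE promoter in hepatocytes, and the line had been crossed back to C57BL/6J for 8 generations or more. Mice of the study were 6 to 12 weeks old, and the age of those used for the arrays is not given in the sources used here. Each of the 6 arrays, 3 per genotype, held a pool of liver RNA from 2 or 3 mice, so every spread below is a spread between pools. The signal for mouse Npc1l1 was well above background on 3 of the 6 arrays. Without probe sequences, whether it also reads the human transgene was not tested, and it was not used as a check of the genotype.

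Conjugating enzymes join a polar group to drugs, bilirubin, bile acids, steroids and reactive electrophiles, which makes them easier to excrete in bile or urine. GST enzymes use glutathione, UGT enzymes use UDP-glucuronic acid and SULT enzymes use the sulfate donor PAPS. In mouse liver several of these genes are induced through Nrf2, the receptors CAR and PXR or the aryl hydrocarbon receptor, and several SULT genes differ between the sexes.

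All values are the log2 of the scanner's processed signal minus the 75th percentile of its array, so 0 is the level of that percentile and each unit is a factor of 2. The 6 arrays lay on 1 slide scanned once, with WT arrays in row 1 and L1-Tg arrays in row 2, so row and genotype cannot be told apart. Between 53.1% and 59.2% of spots were well above background. L1-Tg replicate 2 stood apart in genes of the exocrine pancreas, of which all 5 on the array read highest there: the lipase gene Pnlip read 2.26 there and between -6.80 and -4.10 in the other 5 pools, and the carboxypeptidase gene Cpa1 read 3.02 there and between -5.73 and -3.51 elsewhere. Some of the differences below are also given without this pool. All 10 hepatocyte markers, such as albumin, were well above background in every pool, with a median difference of -0.10. In bulk liver RNA, a change in the number of cells of one type and a change in RNA per cell cannot be told apart.

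No conjugating enzyme gene passed the test between L1-Tg and WT livers, and at each gene's brightest probe the differences were small with 2 exceptions. Of the 58 genes, 44 were tested, because all pools of 1 genotype or both had a signal well above background: 22 GST, 14 UGT and 8 SULT genes. With limma and Benjamini-Hochberg adjustment over all 22346 genes tested, 0 of the 44 had an adjusted p under 0.05, against 29 of all genes (0.13%). At an unadjusted p under 0.05, 5 of the 44 were higher in L1-Tg livers, against 4.54% of all genes, and 0 were lower, against 4.32%. With 1 array left out, 4 to 10 were higher and 0 to 1 lower, with 10 higher and 1 lower without WT replicate 3. These 5 genes were Sult2a7, Ugt2b1, Ugt2b35, Ugt2b34 and Gstm3. In 42 of the 44 genes the log2 difference lay within 0.5 of 0, as in 91.4% of all genes, and the exceptions were Sult2a7 and Mgst2. These counts hold for the brightest probe of each gene. Second, dimmer probes gave 1.03 in Gstm3, 0.67 in Gstm4 and -0.40 in Gstp2. The unadjusted limma p of the last 2 was 0.005 and 0.0459, and no second probe passed the adjusted threshold.

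**Figure D1:**
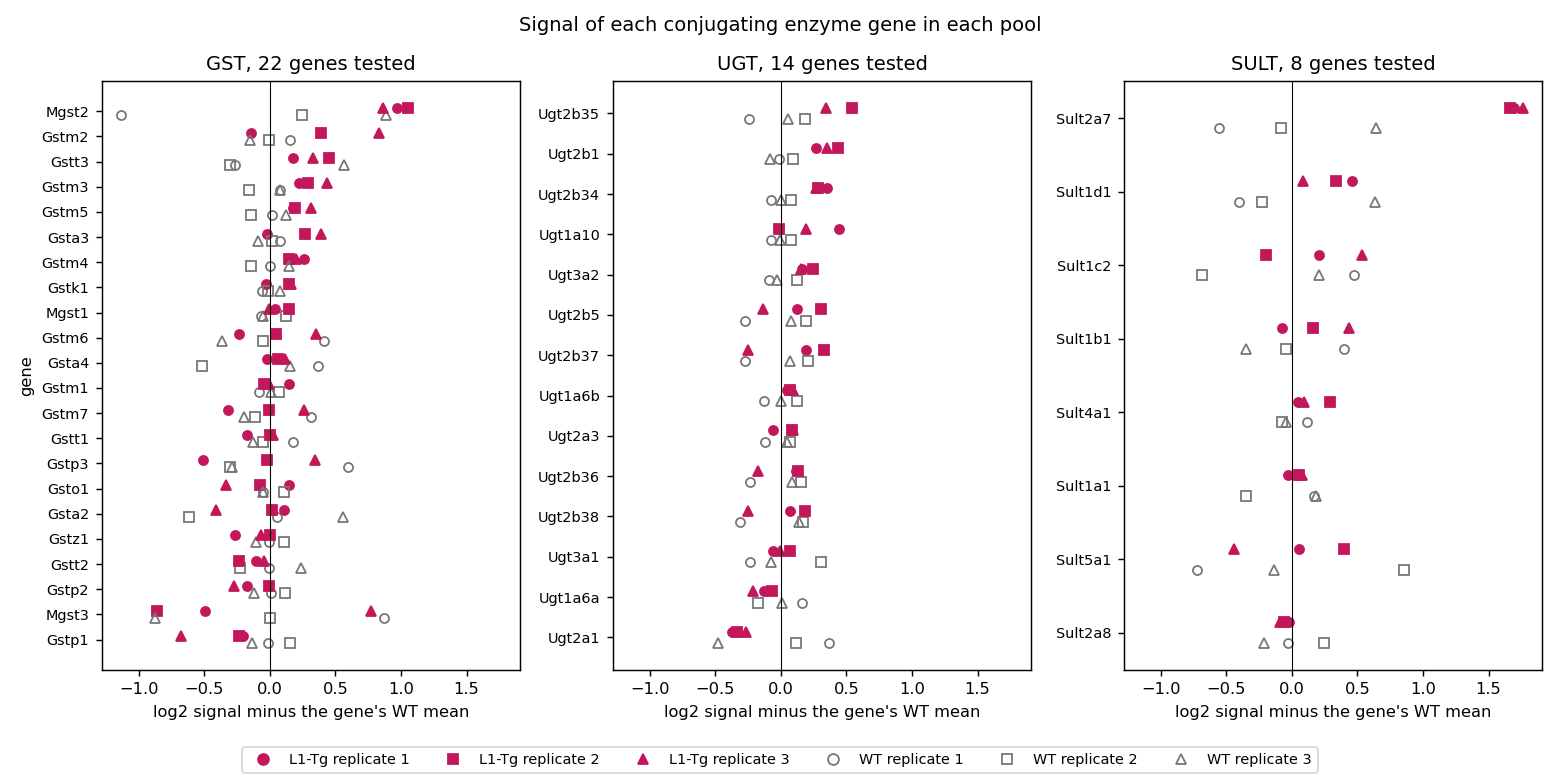
Log2 signal of each of the 44 tested genes in each pool, minus the gene's mean in WT pools (x axis), with 1 row per gene sorted by its difference. Filled symbols are L1-Tg pools and open symbols WT pools. All 3 L1-Tg pools of Sult2a7 lie to the right of its WT pools, as do those of Ugt2b1, Ugt2b34 and Ugt2b35, while most other genes overlap.

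More than the background share of genes in each family leaned to the L1-Tg side, and the difference between families was not tested. Signals were higher in L1-Tg livers in 12 of 22 GST genes, 12 of 14 UGT genes and 7 of 8 SULT genes, against 43.1% of all genes. The median log2 difference was 0.04 in GST, 0.08 in UGT and 0.16 in SULT genes, beside -0.03 over all genes tested. The UGT count rested on single pools, with 6 of 14 higher without WT replicate 1 and 7 of 14 without L1-Tg replicate 2, where the medians were -0.03 and 0.0050. The GST median was 0.16 without WT replicate 1 and -0.0032, with 11 of 22 genes higher, without WT replicate 2. When arrays were scaled by their median, the median over all genes moved to 0.08 and those of GST, UGT and SULT to 0.15, 0.19 and 0.27. This scaling shifts the difference of every gene by the same amount, so it could not change the families' place beside all genes. Members share pools and many share sequence, so these counts are not independent observations.

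**Figure D2:**
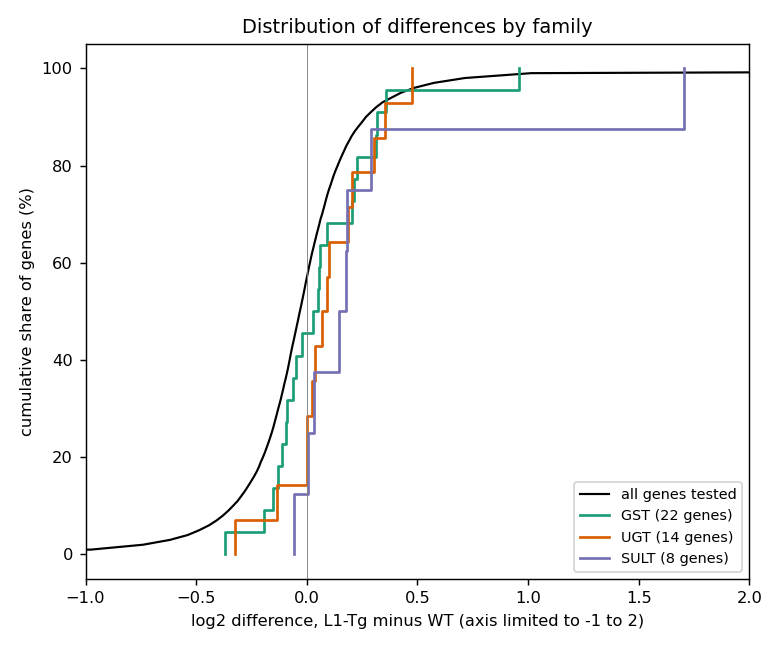
Cumulative share of genes (y axis, %) below each log2 difference between L1-Tg and WT pools (x axis, shown from -1 to 2) for each family and for all 22346 genes tested. The curves of the 3 families lie mostly to the right of the black curve of all genes, with medians of 0.04, 0.08 and 0.16 against -0.03.

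Groups did not overlap in 8 genes that were higher in L1-Tg pools and in 1 that was lower, against 7.27% and 8.64% of all genes. The higher ones were Sult2a7, Ugt2b1, Ugt2b34, Ugt2b35, Ugt3a2, Gstm3, Gstm4 and Gstm5, and the lower one was Gstp1. By the difference index that the study's methods name, the difference of the means divided by the sum of the SDs, with a threshold of 0.7, 5 GST, 4 UGT and 1 SULT genes were higher and 1, 1 and 3 were lower. Over all genes on the array 30.2% passed this index, 8.67% higher and 21.6% lower. It has no filter on dim probes, and the 3 lower SULT genes, Sult2a6, Sult1c1 and Sult6b1, were well above background on no array.

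**Figure D3:**
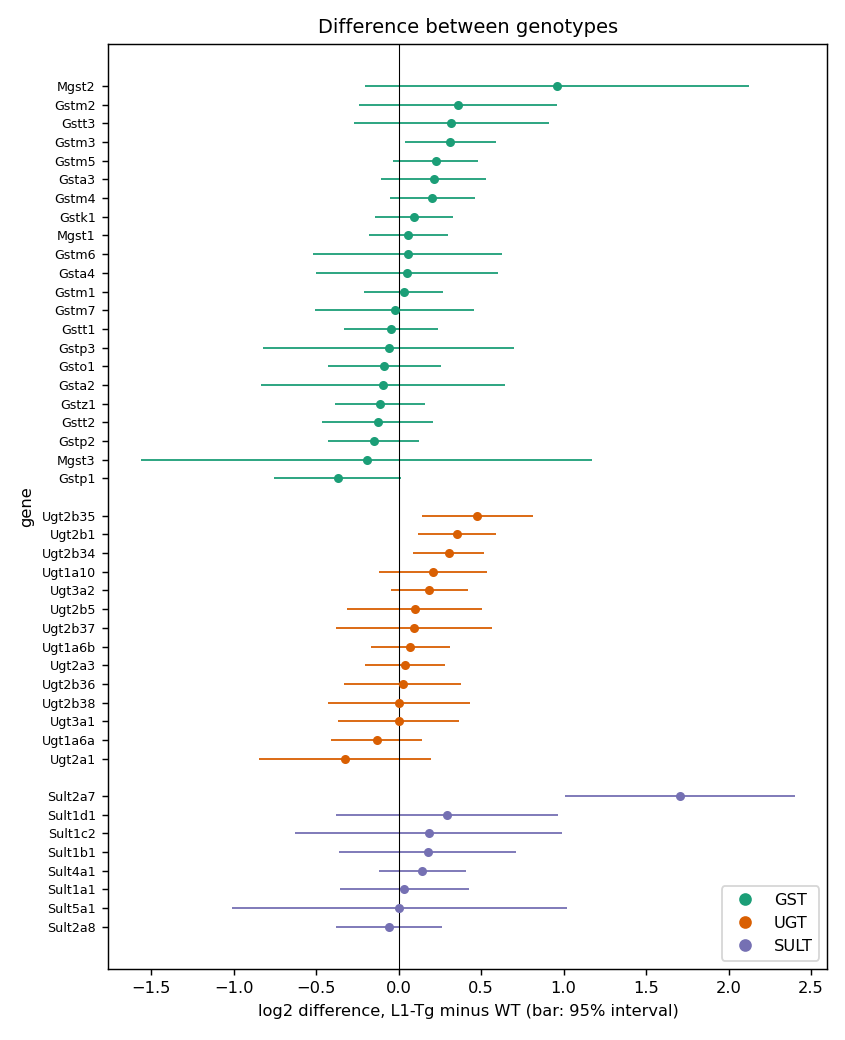
Log2 difference between L1-Tg and WT pools (x axis) for the 44 tested genes, with the 95% interval from limma as a bar, colored by family. The interval leaves out 0 for Sult2a7, Ugt2b1, Ugt2b34, Ugt2b35 and Gstm3, and it is widest for Mgst3, from -1.56 to 1.17.

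The Ugt2b genes encode steroid and drug glucuronosyltransferases and lie in a row on chromosome 5. All 7 had a positive log2 difference, from 0.0014 to 0.48. The 3 genes at the start of the row, Ugt2b34, Ugt2b1 and Ugt2b35, were the ones whose L1-Tg pools all lay above their WT pools. The 4 that follow, Ugt2b36, Ugt2b5, Ugt2b37 and Ugt2b38, had differences of 0.10 or less with overlapping groups.

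The sequences before the start sites of the 7 genes are shown because the genes fell into these sets by position and by signal. Each line gives the 120 bases before the RefSeq start of the gene, 5′ to 3′ on the gene's own strand, from RefSeq on GRCm38.p6. Capitals mark the longest run of letters that the window shares with that of Ugt2b38, and in Ugt2b38 the longest run shared with both Ugt2b5 and Ugt2b37.
Ugt2b34: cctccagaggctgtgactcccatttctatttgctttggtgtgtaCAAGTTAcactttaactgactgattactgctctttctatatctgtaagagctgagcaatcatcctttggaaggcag
Ugt2b1: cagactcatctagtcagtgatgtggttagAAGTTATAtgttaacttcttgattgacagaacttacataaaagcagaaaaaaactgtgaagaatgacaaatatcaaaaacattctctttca
Ugt2b35: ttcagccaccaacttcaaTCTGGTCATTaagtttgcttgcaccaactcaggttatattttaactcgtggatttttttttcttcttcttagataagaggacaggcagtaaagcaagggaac
Ugt2b36: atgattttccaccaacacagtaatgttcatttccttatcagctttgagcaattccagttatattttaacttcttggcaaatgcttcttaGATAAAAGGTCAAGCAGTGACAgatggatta
Ugt2b5: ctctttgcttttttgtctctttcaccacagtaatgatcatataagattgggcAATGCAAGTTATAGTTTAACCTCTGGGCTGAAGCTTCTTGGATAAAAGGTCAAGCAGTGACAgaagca
Ugt2b37: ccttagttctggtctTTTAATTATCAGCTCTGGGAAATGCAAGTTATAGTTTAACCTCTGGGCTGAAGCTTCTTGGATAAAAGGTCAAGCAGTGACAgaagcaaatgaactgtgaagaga
Ugt2b38: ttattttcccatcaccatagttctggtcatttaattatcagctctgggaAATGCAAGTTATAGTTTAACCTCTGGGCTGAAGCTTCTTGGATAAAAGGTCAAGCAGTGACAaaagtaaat
These windows are Ugt2b34 at chr5:86906938-86907057, Ugt2b1 at chr5:86926504-86926623, Ugt2b35 at chr5:87000740-87000859, Ugt2b36 at chr5:87092556-87092675, Ugt2b5 at chr5:87140341-87140460, Ugt2b37 at chr5:87254789-87254908 and Ugt2b38 at chr5:87424204-87424323, with Ugt2b35 on the plus strand and the others on the minus strand. Ugt2b5, Ugt2b37 and Ugt2b38 share a run of 62 bases. The longest run shared with Ugt2b38 was 82 bases in Ugt2b37, 22 in Ugt2b36, 10 in Ugt2b35, 8 in Ugt2b1 and 7 in Ugt2b34. Over 250 bases before the start, identity in a global alignment was 80.0% to 90.0% in the 3 pairs among Ugt2b5, Ugt2b37 and Ugt2b38, and 57.6% to 67.2% in the other 18 pairs. The pairs with Ugt2b36 were among these 18, at 57.6% to 66.4%, so identity did not follow the sets by signal. The alignment allowed gaps, and the identity of unrelated promoters was not measured.

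Ugt2b1 had log2 signals of 4.82, 4.98 and 4.90 in the L1-Tg pools and 4.54, 4.64 and 4.46 in the WT pools. The lowest L1-Tg pool exceeded the highest WT pool, and the 1.28-fold difference was 0.35 on the log2 scale (standard error 0.10, limma adjusted p = 0.4555). Its difference was 0.31 without L1-Tg replicate 2. Ugt2b34 read 6.31, 6.24 and 6.22 in L1-Tg pools and 5.88, 6.03 and 5.95 in WT pools. The groups did not overlap, and the difference was 0.30 (standard error 0.09, adjusted p = 0.4759), and 0.31 without L1-Tg replicate 2. Ugt2b35 read 4.20, 4.20 and 4.004 in L1-Tg pools and 3.41, 3.84 and 3.71 in WT pools. Its groups did not overlap either, with WT replicate 1 the lowest of all, and the difference of 0.48 (standard error 0.14, adjusted p = 0.4717) was 0.44 without L1-Tg replicate 2. A second probe of Ugt2b35 gave 0.30. Under all alternatives tried the 3 genes stayed higher in L1-Tg pools, from 0.27 to 0.59, and none passed the adjusted threshold.

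Ugt2b5 read 7.22, 7.40 and 6.96 in L1-Tg pools and 6.82, 7.29 and 7.17 in WT pools. The groups overlapped, the difference was 0.10 (standard error 0.17), and it was -0.04 without WT replicate 1 and -0.0046 without L1-Tg replicate 2. Ugt2b36 read 6.76, 6.77 and 6.47 in L1-Tg pools against 6.40, 6.79 and 6.73 in WT pools, a difference of 0.02 (standard error 0.15) that was -0.10 without WT replicate 1 and -0.03 without L1-Tg replicate 2. Ugt2b38 read 8.04, 8.15 and 7.71 in L1-Tg pools and 7.66, 8.13 and 8.11 in WT pools. In Ugt2b36, Ugt2b5, Ugt2b37 and Ugt2b38, L1-Tg replicate 3 was the lowest L1-Tg pool and WT replicate 1 the lowest WT pool. This order, noticed in the values, was found in 6 of the 7 Ugt2b genes, all but Ugt2b1, and in 13.6% of the 22323 genes measured without a gap. In Ugt2b37, for example, the L1-Tg pools read 5.99, 6.13 and 5.55 and the WT pools 5.52, 6.00 and 5.86, so that pools of 1 genotype lay further apart than the genotype means. The files hold no probe sequences, and whether their probes read more than 1 of these closely related genes was not tested.

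**Figure D4:**
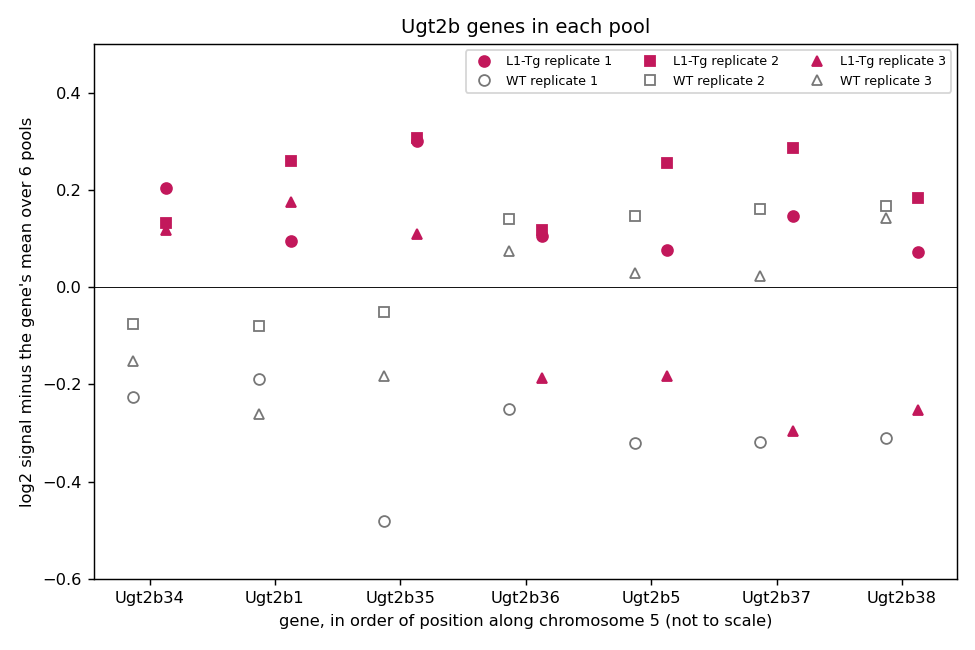
Log2 signal of the 7 Ugt2b genes in each pool, minus the gene's mean over the 6 pools (y axis), with the genes in their order along chromosome 5 (x axis, not to scale). Filled symbols are L1-Tg pools and open symbols WT pools. The groups are apart in the first 3 genes, and in the other 4 L1-Tg replicate 3 and WT replicate 1 lie below the rest.

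The other UGT genes differed less or less evenly. Ugt3a2, of a small family that uses other UDP sugars, read 5.39, 5.48 and 5.39 in L1-Tg pools and 5.14, 5.36 and 5.20 in WT pools. Its groups did not overlap, and the difference was 0.19 (standard error 0.10, limma adjusted p = 0.6111), while a second probe gave 0.07 (standard error 0.11). Its neighbor Ugt3a1 differed by 0.00041 (standard error 0.15). Ugt2a1, best known from olfactory tissue, was dim, with -2.45, -2.41 and -2.35 in L1-Tg pools and -1.72, -1.96 and -2.56 in WT pools. It had the lowest UGT difference, -0.32 (standard error 0.22, adjusted p = 0.6577), with overlapping groups, and Ugt2a3 differed by 0.04. Ugt1a genes join their own first exons to shared last exons, so a probe may read several of them, and the position of the probes was not tested. Ugt1a6b, an enzyme of planar phenols, differed by 0.07 (standard error 0.10) and Ugt1a6a by -0.13 (standard error 0.12), while the probe of Ugt1a10 gave 0.21 (standard error 0.14), all with overlapping groups.

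Among GST genes the mu class leaned one way and the pi class the other. Mu enzymes, the Gstm genes of chromosome 3, act on epoxides and quinones. In this class 6 of 7 genes had a higher signal in L1-Tg pools, with a median difference of 0.20. Gstm3 read 5.20, 5.27 and 5.41 in L1-Tg pools and 5.06, 4.82 and 5.06 in WT pools. The groups did not overlap, and the difference of 0.31 (standard error 0.11, limma adjusted p = 0.5322) corresponded to a 1.24-fold signal. A second, less bright probe of Gstm3 gave 1.03 (standard error 0.46), so the probes agree in sign and not in size.

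Gstm5 read 2.55, 2.57 and 2.69 in L1-Tg pools against 2.40, 2.23 and 2.50 in WT pools, a difference of 0.22 (standard error 0.11). Gstm4 read 4.35, 4.24 and 4.29 against 4.09, 3.95 and 4.23, a difference of 0.20 (standard error 0.11), and its second probe gave 0.67 (standard error 0.16). In both genes the lowest L1-Tg pool lay just above the highest WT pool. Gstm1, the main mu enzyme of mouse liver, read 8.01, 7.82 and 7.86 in L1-Tg pools and 7.79, 7.94 and 7.88 in WT pools. Its groups overlapped and its difference was 0.03 (standard error 0.10). Gstm2 had the largest mean difference of the class, 0.36, with a standard error of 0.25, since its L1-Tg pools ran from 4.29 to 5.27. Gstm6 and Gstm7 differed by 0.05 and -0.02.

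Pi enzymes, encoded by Gstp genes on chromosome 19, are abundant in male mouse liver. All 3 Gstp genes had a lower signal in L1-Tg pools, with a median difference of -0.15. Gstp1 read 8.59, 8.56 and 8.12 in L1-Tg pools and 8.78, 8.95 and 8.66 in WT pools. It was the only tested member with every L1-Tg pool below every WT pool, and had a 0.774-fold signal (log2 difference -0.37, standard error 0.16, adjusted p = 0.5642 by limma). A second probe gave -0.36. L1-Tg replicate 3 carried much of this: without it the difference was -0.22. Gstp2 read 9.63, 9.80 and 9.53 in L1-Tg pools and 9.82, 9.92 and 9.68 in WT pools. Its difference was -0.15 (standard error 0.11), and its second probe gave -0.40 (standard error 0.16). Gstp3 overlapped widely, with a difference of -0.06 (standard error 0.32). Whether probes of the Gstm or the Gstp genes read more than 1 gene of their class was not tested, so genes of a class may not be separate readings.

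The remaining GST genes had no common direction. Alpha enzymes reduce lipid peroxides: Gsta3 differed by 0.21 (standard error 0.13), Gsta4 by 0.05 and Gsta2 by -0.09. Gsta3 read 8.45, 8.74 and 8.86 in L1-Tg pools and 8.54, 8.49 and 8.37 in WT pools, and only L1-Tg replicate 1 fell within the WT range. Gstz1, which also works in tyrosine breakdown as maleylacetoacetate isomerase, differed by -0.11 (standard error 0.11) and Gstt2 by -0.13 (standard error 0.14). The microsomal enzyme Mgst1, among the most evenly measured members, read 8.98, 9.08 and 8.93 in L1-Tg pools and 8.87, 9.06 and 8.89 in WT pools, a difference of 0.06 with a 95% interval from -0.18 to 0.30.

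Mgst2, which can form leukotriene C4, had the largest GST difference and was close to background. Its L1-Tg pools read -3.22, -3.13 and -3.32, and its WT pools -5.32, -3.94 and -3.30. WT replicate 1 was not well above background, and WT replicate 3 was at the level of the L1-Tg pools. The difference of 0.96 (standard error 0.48, limma adjusted p = 0.6006) shrank to 0.39 when WT replicate 1 was left out and to 0.02 when the background was corrected by normexp. Mgst3 was the most variable member, with 1.48, 1.11 and 2.74 in L1-Tg pools and 2.84, 1.97 and 1.09 in WT pools, and a pooled SD of 0.87 against a median of 0.18 over GST genes.

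Of the SULT genes only Sult2a7 stood out, and most of the others were not measured. Sult2a enzymes sulfate hydroxysteroids and bile acids. Sult2a7 read 0.64, 0.61 and 0.71 in L1-Tg pools and -1.61, -1.13 and -0.41 in WT pools. The L1-Tg pools lay close together and above every WT pool, while the WT pools were spread over more than 1 unit. The 3.26-fold difference of 1.71 on the log2 scale (standard error 0.29, 95% interval 1.01 to 2.40) had the smallest p of all members, with a limma adjusted p of 0.2075. Without WT replicate 3, the highest of the WT pools, the difference was 2.03 and the adjusted p 0.0399, and under no other alternative did it pass. The difference was 1.73 without L1-Tg replicate 2, and it ran from 1.22 after normexp correction to 2.03 over all alternatives. Sult2a7 was read by 1 probe, and whether this probe also reads other Sult2a genes was not tested.

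Sult2a8, a neighboring gene on chromosome 7 and an enzyme of bile acid sulfation, did not share this difference. It read 6.73, 6.70 and 6.67 in L1-Tg pools and 6.73, 7.00 and 6.54 in WT pools, a difference of -0.06 (standard error 0.13, 95% interval -0.38 to 0.26). The L1-Tg pools lay inside the WT range. The other Sult2a genes on the array, Sult2a1, Sult2a2, Sult2a3, Sult2a4 and Sult2a6, were well above background on no array.

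Because Sult2a genes are known for higher expression in female liver, the markers of female-biased liver expression are given beside Sult2a7. Of the 7 tested, 3 were higher, all of them Cyp2 genes, and 4 were lower, with a median difference of -0.07. Their summed signal on the log2 scale was 8.92 to 9.09 in L1-Tg pools and 8.01 to 8.51 in WT pools, and nearly all of it came from 1 bright gene, Cyp2a4. Cyp2a4 read 9.07, 8.91 and 9.04 in L1-Tg pools and 8.12, 7.96 and 8.48 in WT pools, a difference of 0.82 (limma adjusted p = 0.2677). Cyp2b9 differed by 2.57 (standard error 0.89) and Cyp2b13 by 2.83 (standard error 0.83), whereas Acot3 differed by -0.62 (standard error 0.20). Both Cyp2b genes were dim in WT pools, well above background in only 2 of them, and were tested because all L1-Tg pools were. For Cyp3a44, which differed by -1.04, only 2 L1-Tg pools but all WT pools were well above background. The 9 male-biased genes had a median difference of -0.07, and 0 of them had an unadjusted p under 0.05. The part of these genes' regulation in the Sult2a7 result was not tested.

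The other SULT genes had smaller differences, none with an unadjusted p under 0.05. Sult1a1, the main phenol sulfotransferase, read 6.63, 6.72 and 6.75 in L1-Tg pools and 6.83, 6.31 and 6.85 in WT pools. Its difference was 0.03 (standard error 0.16), its second probe gave -0.0066, and this was the only gene of 17 with several tested probes whose probes differed in sign. Sult1d1, which sulfates catecholamines and eicosanoids, differed by 0.29 (standard error 0.28), Sult1c2 by 0.18 (standard error 0.33) and Sult1b1, an enzyme of thyroid hormone sulfation, by 0.18 (standard error 0.22). With 1 array left out, Sult1d1 ran from 0.09 to 0.61 and Sult1b1 from 0.0020 to 0.37. Sult5a1 read 1.88, 2.22 and 1.38 in L1-Tg pools and 1.1003, 2.68 and 1.69 in WT pools, a difference of 0.0032 (standard error 0.42) that was -0.19 without L1-Tg replicate 2. Its WT pools alone spanned more than its L1-Tg pools did, and the median pooled SD was 0.37 over SULT genes, 0.17 over UGT genes and 0.17 over all genes. Sult4a1, known from brain, was dim and differed by 0.14 (standard error 0.11).

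In all, 13 members were well above background on no array, 2 GST genes (Gsto2 and Gstt4) and 11 SULT genes, against 29.4% of all genes on the array. Beside the 5 Sult2a genes already named these were Sult1c1, Sult2b1, Sult3a1, Sult3a2, Sult6b1 and Sult6b2. Every UGT gene was measured in all 6 pools. Sult1e1, the estrogen sulfotransferase, was well above background in L1-Tg replicates 1 and 2 and in WT replicate 3, with signals of -3.50, -3.89 and -4.67 in L1-Tg pools and -6.27, -5.27 and -4.003 in WT pools. It was therefore not tested.

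Promoters of the members were searched for letters bound by known regulators of these families, on both strands of the 250 bases before each RefSeq start, for the 50 members with an entry. The core of the antioxidant response element bound by Nrf2, TGACNNNGC, was in 4 of 22 GST genes, 0 of 12 UGT genes and 0 of 16 SULT genes, against 10.2% of 32851 promoters. Members were counted per gene, with a match before any of its starts, while the share is per promoter. Some members have several starts, so counts and shares do not compare directly, here and for the letters below. The 4 matches are shown on GRCm38.p6, each on the gene's own strand with the matched letters in capitals, since they let the reader see which GST genes hold the letters; Mgst1 holds them on the opposite strand.
Gsta3: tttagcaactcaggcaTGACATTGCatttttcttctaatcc
Gstm5: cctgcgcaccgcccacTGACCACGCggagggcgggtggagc
Gstm7: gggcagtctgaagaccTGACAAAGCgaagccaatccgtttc
Mgst1: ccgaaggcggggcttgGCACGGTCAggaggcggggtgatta
They lie at chr1:21240448-21240488 (Gsta3), chr3:107895796-107895836 (Gstm5), chr3:107931719-107931759 (Gstm7) and chr6:138140455-138140495 (Mgst1), and the match begins 121, 42, 129 and 56 bases before the start. The log2 differences of these 4 genes were 0.21, 0.22, -0.02 and 0.06, and Gstm3 and Gstm4, with like differences, had no match in their windows. The core of the xenobiotic response element bound by the aryl hydrocarbon receptor, GCGTG, was in 6 GST, 0 UGT and 3 SULT genes, against 28.2% of promoters, and in Gstm5 it overlaps the antioxidant element match. The letters GTTAAT, part of sites bound by HNF1, were in 1 GST, 4 UGT and 6 SULT genes, against 6.43%. None of these letters was in the 250 bases before any of the 7 Ugt2b genes. Only the exact letters were searched, so other forms of an HNF1 site were not counted. Whether the Ugt2b windows hold such a form was not tested.

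The genes that supply and control conjugation were read from lists chosen by function, and 0 genes of any list passed the adjusted threshold. The glutathione list had 6 of its 8 tested genes on the higher side and a median difference of 0.07, where 43.1% of all genes were higher. Gclc, the rate-limiting subunit of glutathione synthesis, read 6.00, 5.96 and 6.05 in L1-Tg pools and 5.58, 5.52 and 5.61 in WT pools. The pools of each genotype lay close together, and the groups were apart by 0.43 (standard error 0.08, limma adjusted p = 0.2822). Glutathione reductase, Gsr, read 4.50, 4.49 and 4.55 against 4.22, 4.22 and 4.17, a difference of 0.31 (standard error 0.08, adjusted p = 0.4316), and its groups did not overlap either. The lists for UDP-glucuronic acid and PAPS had medians of 0.22 over 5 genes and 0.09 over 6. Ugdh, which makes UDP-glucuronic acid, read 5.62, 5.33 and 5.31 in L1-Tg pools and 4.63, 4.76 and 5.32 in WT pools, a difference of 0.52 (standard error 0.20, adjusted p = 0.547) with WT replicate 3 inside the L1-Tg range. Pgm1, a phosphoglucomutase upstream of it, differed by -0.21 (standard error 0.10). Bpnt1, which clears the spent sulfate donor, differed by 0.21 (standard error 0.09), and Papss1, which makes PAPS, by 0.33 (standard error 0.26).

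The regulators had a median difference of -0.11 over 14 genes, beside -0.03 over all genes tested. With arrays scaled by their median these were 0.0013 and 0.08, since that scaling shifts every gene alike. Nfe2l2, which encodes Nrf2, read 3.50, 3.18 and 3.49 in L1-Tg pools and 3.14, 2.80 and 3.05 in WT pools, with every L1-Tg pool above every WT pool and 0.39 between the means (standard error 0.14, adjusted p = 0.5271 by limma). Rxra, the partner of CAR and PXR, differed by -0.20 (standard error 0.10), CAR itself (Nr1i3) by -0.09 and PXR (Nr1i2) by -0.27.

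Other known targets of these regulators had the largest differences near the conjugating enzymes. In this list 12 of 14 genes were higher, with a median of 0.34, and at an unadjusted p under 0.05 there were 6 higher and 1 lower, against 43.1%, 4.54% and 4.32% of all genes. Srxn1, the Nrf2 target sulfiredoxin, read 5.06, 4.36 and 4.52 in L1-Tg pools and 3.39, 3.88 and 4.04 in WT pools, 0.88 apart on average (standard error 0.24, adjusted p = 0.4564 by limma). Nqo1, a quinone reductase, read -0.75, -0.96 and -0.60 against -1.82, -1.93 and -1.05, a difference of 0.83 (standard error 0.25, adjusted p = 0.4764). In both genes the groups did not overlap. Cyp2b10, the CAR target, was higher by 2.33 with a standard error of 0.89, since 1 WT pool read -1.29 and the others 1.47 and 1.87. Por, the electron donor of the P450 enzymes, differed by -0.42 (standard error 0.14).

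**Figure D5:**
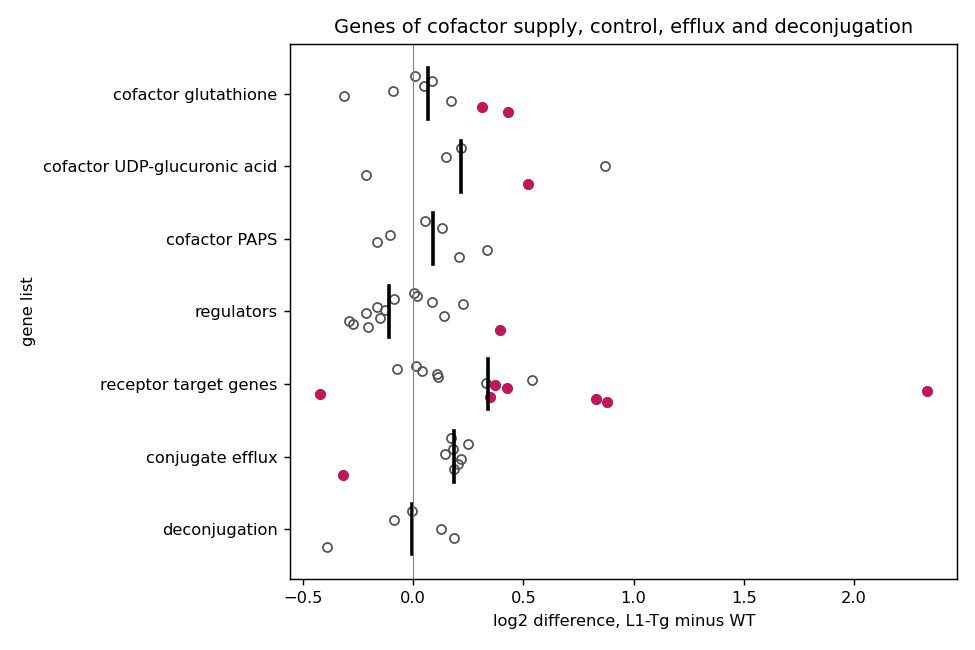
Log2 difference between L1-Tg and WT pools (x axis) for each tested gene of the 7 lists (rows). Filled circles have an unadjusted limma p under 0.05, open circles do not, vertical bars are list medians and none of the genes passed the adjusted threshold. The receptor target genes reach 2.33 with a median of 0.34, while the deconjugation genes lie around -0.0066.

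Carriers that move conjugates out of or into the cell were higher in 7 of 8 genes, with a median difference of 0.18. The exception, Abcc6, read 4.45, 4.60 and 4.34 in L1-Tg pools and 4.76, 4.81 and 4.79 in WT pools, which did not overlap and differed by -0.32 (standard error 0.10, adjusted p = 0.4911 by limma). Abcc2, the canalicular exporter of glucuronides, differed by 0.15 (standard error 0.11) and the uptake carrier Slco1b2 by 0.19 (standard error 0.11). Genes of deconjugation had a median of -0.0066 over 5 genes, with Gusb, beta-glucuronidase, at -0.0066, Arsg at -0.39 and Arsb at 0.18.

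Markers of other liver cells were read in the same pools. All 10 Kupffer cell markers were higher in L1-Tg pools, with a median difference of 0.33, and 0 had an unadjusted p under 0.05. Their summed signal on the log2 scale was 7.42 to 7.65 in L1-Tg pools and 6.76 to 7.64 in WT pools, lowest in WT replicate 1, so the groups overlapped. Medians were 0.37 over 9 lymphocyte, 0.07 over 6 endothelial, -0.05 over 7 stellate cell and -0.36 over 5 cholangiocyte markers. The summed lymphocyte signal leaned the other way from its median, at 6.49 to 6.76 in L1-Tg and 6.65 to 7.88 in WT pools. Among lymphocyte markers, 6 were higher and 3 lower, and the bright Cd4 differed by -0.71. The cholangiocyte sums overlapped, at 0.63 to 1.14 in L1-Tg and 0.59 to 1.05 in WT pools. The summed hepatocyte signal was 12.6 to 12.9 in L1-Tg and 12.7 to 12.9 in WT pools. Their part in the differences of the conjugating enzymes was not tested.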

How the data were processed

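Liver RNA of 3 L1-Tg and 3 WT pools was read on 6 one-color Agilent mouse arrays. Per the labels and file headers, the authors read the scanned images with Agilent Feature Extraction (version 10.10.1.1). They deposited processed signals, which are background-corrected intensities on a linear scale, and a matrix of normalized intensities. This matrix was found to be the processed signal times 1 factor per array and served as an alternative. Samples were grouped by their titles.

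For this report log2(processed signal) minus each array's 75th percentile was taken, control spots and non-uniform spots (1 to 22 per array) were left out and no spot was saturated. Repeats of a probe were averaged. Each gene was read by its brightest probe on average, and levels of different probes are not comparable. Of 28685 probes with a RefSeq identifier, 27235 matched the RefSeq table of GRCm38.p6, and other genes kept the files' name. A gene was tested if all arrays of either group had it well above background. Tests were two-sided, by limma (version 3.58.1, lmFit and eBayes, in R 4.3.3) on both groups without covariates, with Benjamini-Hochberg adjustment over all 22346 genes and a threshold of 0.05. Precision is limited by the 3 arrays per group; depth does not apply. Scripts were tested on simulated data with known differences. Promoter windows were aligned with Biopython, and figures drawn with matplotlib.

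Named genes were, in each family, up to 4 higher and 4 lower tested members with the smallest p, and fixed reference members; of the lists, the 2 genes with the smallest p. Further genes were named with their values known. The members and lists were chosen with earlier results of these data known. Alternatives were quantile, array median or no scaling, normexp (offset 50), the deposited matrix, other filters on dim probes, the mean over probes, a replicate block, limma trend, each array left out and, chosen after seeing the data, each gene's other probes. Replicate numbers were compared by the correlation of same-numbered pools and used as a block only there. The array's design annotation, the probe sequences and protein sequences were not used here.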

Additional observations from a re-analysis of the deposited data

How the results depend on the processing

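The alternatives changed no member's call but one: without WT replicate 3, 1 SULT gene (Sult2a7) passed, so leaving out 1 array gave 0 to 1 SULT calls and 0 GST and UGT calls. Under array median scaling, where all genes had a median of 0.08, medians were 0.15 (GST), 0.19 (UGT), 0.27 (SULT), 0.18 (glutathione), 0.20 (PAPS), 0.0013 (regulators), 0.29 (efflux) and 0.10 (deconjugation). The regulators' median was -0.0325 with quantile normalization, -0.0529 with no scaling and -0.0593 with the deposited matrix. Over all genes the median was 0.0083, 0.0231 and 0.0167 in the same order. The SULT median was -0.0273 over all 20 genes with no filter on dim probes. With 1 array left out, the median ran from -0.0032 to 0.16 in GST, -0.0303 to 0.17 in UGT and -0.16 to -0.0321 in regulator genes.

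With the index above 1, 3 GST genes were higher and 0 genes of any family lower. The deposited matrix gave 2 higher SULT and 0 lower UGT genes, and 0 SULT genes were lower among those well above background on all 6 arrays. With 1 array left out, the counts ran from 1 to 4 (GST lower), 4 to 7 (UGT higher), 0 to 1 (UGT lower), 1 to 3 (SULT higher) and 2 to 6 (SULT lower).

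Signs of near-zero differences turned. Sult2a8 was 0.0416 with quantile normalization and 0.0509 with median scaling, Sult4a1 -0.45 as a mean with a probe that no array measured, Sult5a1 -0.02 with normexp and Sult1a1 -0.0066 at its other probe. With 1 array left out, the differences ran from -0.17 to 0.0635 (Sult2a8), -0.0279 to 0.0683 (Gstm1), -0.0381 to 0.21 (Ugt2b5), -0.10 to 0.12 (Ugt2b36), -0.14 to 0.13 (Sult1a1), -0.16 to 0.42 (Sult1c2) and -0.36 to 0.43 (Sult5a1). The cause was not tested.

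Same-numbered pools correlated at -0.16, 0.11 and 0.02. The highest correlation of each L1-Tg pool with any WT pool was 0.08, 0.11 and 0.17 in the same order. All of these values were low, so they cannot tell whether the numbers pair the pools. With the replicate number as a block, 11 genes passed in place of 29 and 0 members, and the family medians were 0.04, 0.08 and 0.16. The genes called over all genes ran from 10 to 36 over the alternatives. Mgst2 was close to background, whereas Sult2a7 was well above background in every pool. The differences of both depend on the background correction, at 0.02 and 1.22 with normexp. The row of the slide cannot be told apart from the genotype.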
